A study of Mus musculus with 33 samples.

Results

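Matrix metalloproteinases (Mmp genes), the adamalysins with thrombospondin motifs (Adamts genes) and the tissue inhibitors of metalloproteinases (Timp genes) were examined in sorted mammary epithelial cells of mice with and without tumors. The members were the protein-coding genes named by number within these families that held at least 10 reads over all libraries. They came to 45 of the 36527 genes tested, namely 22 Mmp genes, 19 Adamts genes and 4 Timp genes. This rule used names and total reads only, while the families were picked with earlier results of these data known. Mmp1a, the other mouse collagenase of the Mmp1 pair, was not analysed here.

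These zinc-dependent endopeptidases are made as inactive precursors whose prodomain blocks the catalytic site until it is cut away. Collagenases open the triple helix of fibrillar collagen, gelatinases degrade the unwound chains and basement membrane collagen, stromelysins act on proteoglycans and other matrix proteins, and membrane-type enzymes act at the cell surface. ADAMTS proteases are secreted and bind the matrix, where some cut hyalectans such as aggrecan and versican and others trim the N-propeptides of procollagens. TIMPs bind the active site of these enzymes, and Timp3 is the TIMP best known for inhibiting ADAMTS proteases as well. In the mammary gland these proteins are known for their part in ductal branching and in the remodelling that follows lactation.

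The study addressed what loss of parathyroid hormone-related protein, encoded by Pthlh, changes while mammary tumors form. All 33 mice carried Cre recombinase under the mouse mammary tumor virus promoter (MMTV-Cre), and each gave 1 library. They also carried a ROSA mT/mG reporter that turns cells from red to green once Cre has acted. The 19 tumors came from mice that also carried the polyoma middle T oncogene under the same promoter (MMTV-PyMT), and the 14 glands came from tumor-free mice. The study gives an FVB background for the MMTV-Cre and MMTV-PyMT lines. Its Pthrp floxed line came from C57BL/6 mice backcrossed to FVB, and no background is stated for the reporter line. WT mice were Pthrpwt/wt;Cre+ and KO mice Pthrpflox/flox;Cre+, so that the loxP-flanked exon was lost only in cells with Cre. WT tumors were collected at weeks 6, 8 and 10 (3 mice each) and at week 12 (1 mouse), and KO tumors at weeks 8, 10 and 12 (3 mice each). The glands were taken at weeks 6, 8, 10 and 12 from WT mice and at weeks 8, 10 and 12 from KO mice, with 2 animals per week. The study set hyperplasia, adenoma and carcinoma at weeks 6, 8 and 10 in WT mice and at weeks 8, 10 and 12 in KO mice. Tissue was digested with collagenase and dispase, and the cells were kept in serum-containing medium for 48 h and sorted as GFP+ before RNA was taken. All values therefore describe cells that had been through protease digestion and a short culture.

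The libraries held between 28419983 and 130981596 counted reads, with a median of 46351179. Levels are given as counts scaled to library size by TMM (CPM, where M stands for 1000000 library reads) within a gene, and as CPM per kilobase of exon (RPKM) between genes. The count of Pthlh over the whole gene was 2.65 CPM in the median WT tumor against 1.64 in the median KO tumor, and 5.79 against 3.49 in the glands, and these ranges overlapped between genotypes in both tissues. The study's deletion covers 1 exon, and a count over the whole gene does not separate its reads. Reads on ribosomal RNA made up at most 0.447% of WT libraries but reached 12.0% in KO tumors and 18.8% in KO glands. The labels call all samples mammary epithelium. Basal or myoepithelial markers (10 genes such as Krt5 and Acta2) summed to 1006 to 3694 CPM in WT tumors, 1612 to 5420 in KO tumors, 5311 to 20766 in WT glands and 5561 to 19725 in KO glands. Luminal markers summed to 4389 to 11045 CPM over all libraries. Fibroblast markers stood at 797 and 257 CPM in WT gland replicate 2 of week 8 and of week 6 and at or below 151.7 CPM in the other libraries. Both libraries were kept, and calls of members in the averaged contrasts that were lost without them are named.

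Per kilobase of exon, inhibitors and 1 membrane-type protease led the members in abundance. Timp1 averaged 107.5 RPKM over the 33 libraries, Timp3 83.6 and Timp2 45.4. Mmp14, the membrane-type enzyme that activates pro-MMP2, averaged 52.2 RPKM and was the most abundant protease. Mmp9, the gelatinase B gene, averaged 28.8 RPKM and Adamts1, a versican-cleaving protease, 28.7 RPKM. Next came Mmp2 (gelatinase A) at about 10 RPKM, Adamts4 (an aggrecanase) at 9.37, Mmp10 (stromelysin 2) at 7.48 and Mmp3 (stromelysin 1) at 6.57. The order changed with tissue: in WT glands Mmp14 at 86.3 RPKM stood between Timp1 at 99.1 and Timp3 at 85.0, and Mmp9 followed at 65.8, whereas in WT tumors Timp1, Timp3 and Timp2 came before Mmp14 at 36.6. These 4 genes led the KO tumors in the same order, with Mmp14 at 31.3 RPKM. The ranges over libraries overlapped widely between neighbours in these orders, for instance 19.7 to 127.6 RPKM for Timp1 and 60.2 to 148.2 RPKM for Timp3 in WT tumors.

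**Figure D1:**
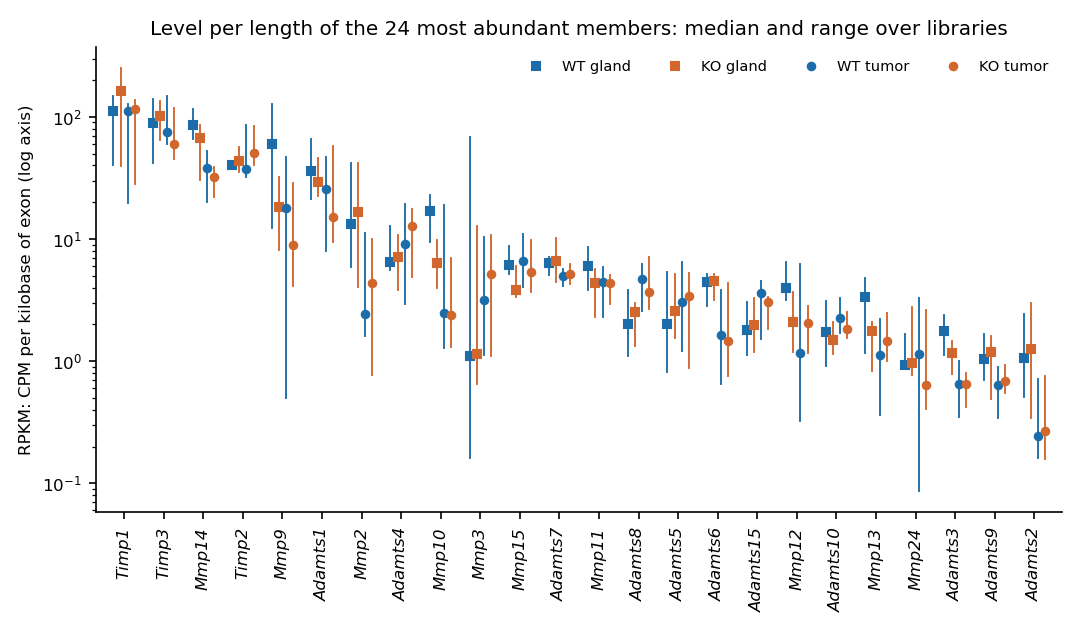
RPKM (log axis) of the 24 members with the highest mean level, by genotype and tissue, with the point at the median and the line from the lowest to the highest library. Timp1, Timp3, Mmp14 and Timp2 sit highest, and the gland and tumor ranges of Mmp14 lie apart in WT mice (65.6 to 115.5 against 19.9 to 52.6 RPKM).

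In 10 or more libraries, 7 members held at most 3 reads. Mmp20, the enamel protease, gathered 20 reads in all and at most 3 in each of the 33 libraries. Timp4 gathered 51 reads, Adamts13, which cleaves von Willebrand factor, 67, Mmp21 121, Adamts19 140 and Mmp27 155. Differences of Mmp20, Timp4, Adamts13, Mmp21 and Adamts19 were not detectable at this depth. Of the 155 reads of Mmp27, 82 came from WT gland week 8 replicate 2 and 20 from WT gland week 6 replicate 2, the same glands that held the high fibroblast sums. Mmp7 gathered 590 reads, nearly all from tumors, as described below.

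Tumors were first compared with tumor-free glands of the same genotype and week, averaged over 3 weeks. A gene was called when its fold change exceeded 1.5 and its edgeR adjusted p over all genes was under 0.1. In WT mice 26 of the 45 members were called, 6 higher and 20 lower in tumors, where 15.7% of all genes were called, 6.21% higher and 9.53% lower. The median log2 fold change was −0.57 over the members and 0.03 over all genes. In KO mice 17 members were called, 4 higher and 13 lower, where 10.6% of all genes were called, 5.16% higher and 5.44% lower. The median here was −0.10 over the members and 0.09 over all genes. By role, the lower members in WT mice were 2 of 3 collagenases, both gelatinases, 3 of 5 genes of the stromelysin group, 3 of 6 membrane-type enzymes, 2 of 3 procollagen N-proteinases, 2 of 7 hyalectan-cleaving ADAMTS genes, 4 of 9 other ADAMTS genes and 2 of 6 other MMP genes. No TIMP was called by edgeR in either averaged contrast. Without the 2 fibroblast-rich glands, 7 of the 26 WT calls were lost, namely Adamts16, Adamts17, Adamts5, Adamts9, Mmp27, Mmp3 and Mmp8. The 2 contrasts use different mice throughout. Called in both were 15 members, 11 were called in WT mice alone and 2 in KO mice alone, and those sets say nothing of a difference between genotypes, which was tested separately and is given further on. Fewer cells of a type and less RNA per cell cannot be told apart in these libraries.

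By week, the calls in WT mice numbered 7 at week 6 (5.86% of all genes were called), 19 at week 8 (9.19%) and 13 at week 10 (6.13%). In KO mice they numbered 2 at week 8 (2.49%), 8 at week 10 (5.66%) and 9 at week 12 (6.11%). Adamts20 was called at all 6 points, and Adamts3, Mmp14 and Mmp7 were called with it at all 3 WT weeks. Each of these counts fell by more than 1.5 times without 1 library, the fibroblast-rich gland of the week in the case of WT weeks 6 and 8. In WT mice they went to 0 at week 6 and 9 at week 8 without gland replicate 2 of that week (the 10 lost at week 8 were Adamts10, Adamts15, Adamts17, Adamts5, Adamts6, Adamts9, Mmp12, Mmp13, Mmp27 and Mmp3), and to 7 at week 10 without gland replicate 1. In KO mice they went to 0 at week 8 without gland replicate 1 or tumor replicate 3, to 2 at week 10 without gland replicate 2 or tumor replicate 3, and to 3 at week 12 without gland replicate 1 or tumor replicate 2.

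**Figure D2:**
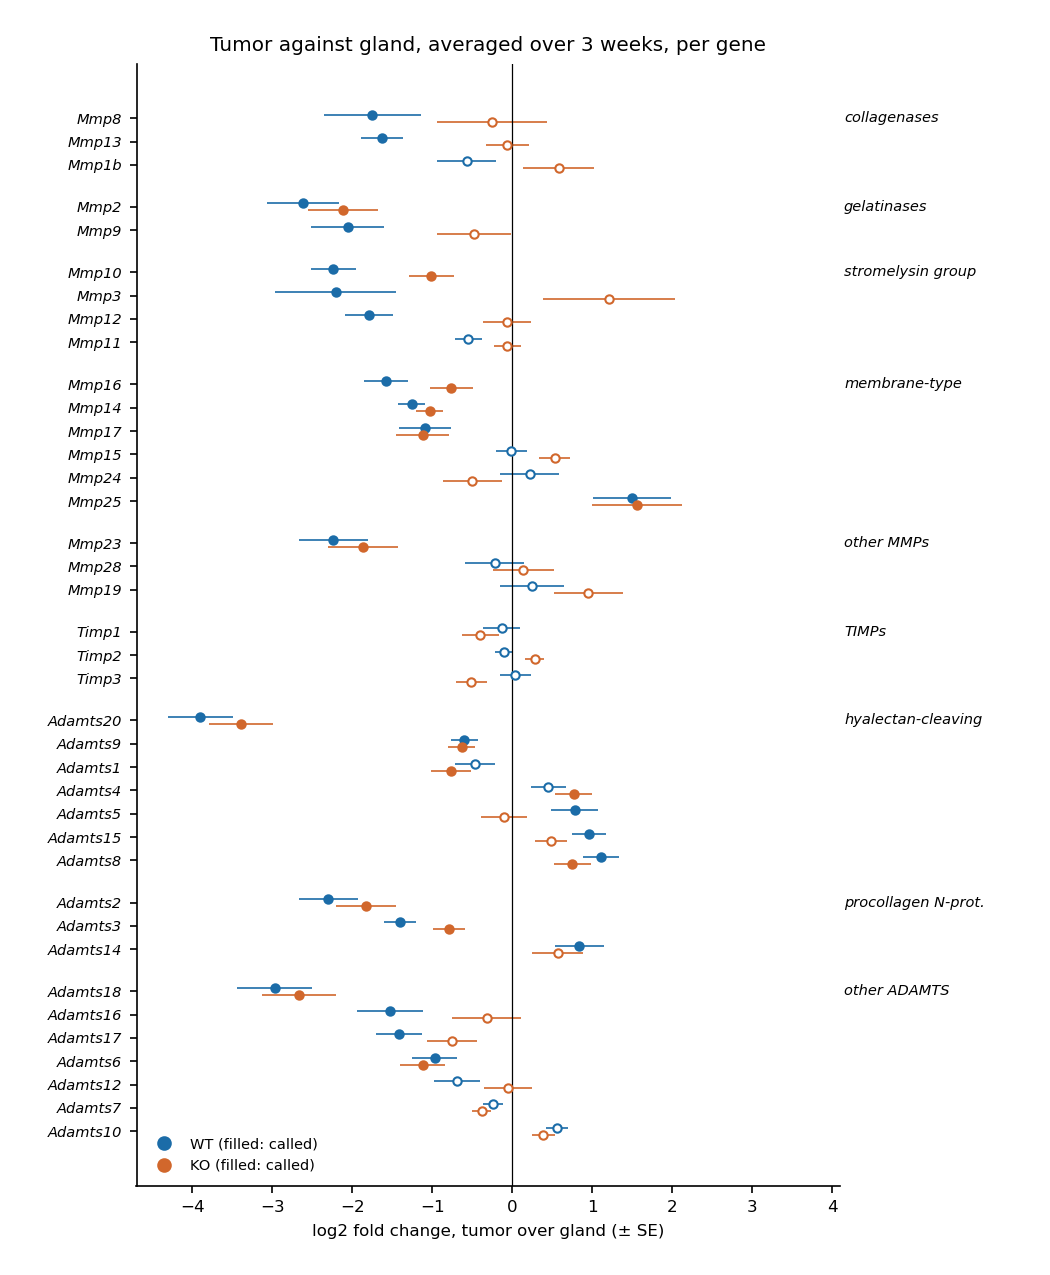
Log2 fold change of tumors over glands for 38 members grouped by role, WT mice in blue and KO mice in orange, with bars of 1 standard error and filled points where the gene was called. The 7 members with at most 3 reads in 10 or more libraries are left out, the TIMPs lie near 0, and Adamts20 lies lowest at −3.90 and −3.39.

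Mmp14 was lower in the tumors of both genotypes. The gene lies on chr14:54431612-54445364 (GRCm38, plus strand). It measured 391.1, 512.7 and 689 CPM in the lowest, median and highest of 8 WT glands and 118.6, 228 and 314 CPM in 10 WT tumors. In KO mice it measured 183, 399 and 513 CPM in 6 glands and 132, 191 and 230.3 CPM in 9 tumors. All WT tumors thus lay below all WT glands, whereas in KO mice the lowest gland, replicate 2 of week 12, lay among the tumors. The log2 fold change was −1.26 (SE 0.17, adjusted p = 5.59e-06) in WT mice and −1.03 (SE 0.17, adjusted p = 0.000124) in KO mice. The other surface-bound enzymes that were called lower were Mmp16, at −1.58 in WT mice and −0.76 in KO mice, and Mmp17, a GPI-anchored enzyme, at −1.09 and −1.12. The call of Mmp17 was lost in WT mice without gland replicate 1 of week 10 (−0.85, adjusted p = 0.1) and in KO mice without gland replicate 1 of week 12 or of week 8 (−0.93 to −0.55). The KO call of Mmp16 was lost without any 1 of 8 libraries (−0.72 to −0.55, adjusted p between 0.102 and 0.281).

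Mmp2, whose product is activated by Mmp14 at the cell surface, was lower as well. It lies on chr8:92827291-92853420 (plus strand) and measured 19.9, 44.5 and 142 CPM in the lowest, median and highest WT gland and 5.39, 8.17 and 38.0 CPM in the WT tumors. KO glands held 13.7, 56.3 and 140.5 CPM and KO tumors 2.6, 14.7 and 33.6 CPM. The groups overlapped through 1 tumor in WT mice (week 10 replicate 1) and through 1 gland in KO mice (week 12 replicate 2, the lowest gland again). The log2 fold change was −2.62 (SE 0.45, adjusted p = 8.81e-05) in WT mice and −2.12 (SE 0.44, adjusted p = 0.00117) in KO mice. Without KO gland replicate 1 of week 12 the KO value was −1.28, still called. Mmp23, an enzyme tethered through its N terminus, fell by 2.24 on the log2 scale in WT mice (SE 0.43) and by 1.87 in KO mice (SE 0.44). Its KO call was lost without gland replicate 1 of week 12 (−1.09, adjusted p = 0.146).

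Among the ADAMTS genes, Adamts20 and Adamts18 showed the lowest log2 fold changes. Adamts20, a versican-cleaving protease on chr15:94270163-94465418 (minus strand), measured 6.32, 12 and 23.9 CPM in the lowest, median and highest WT gland and 0.142, 0.725 and 2.93 CPM in the WT tumors. KO glands held 6.06, 15.9 and 19.5 CPM and KO tumors 0.35, 1.25 and 3.26 CPM. Tumors and glands did not overlap in either genotype. The log2 fold change was −3.90 (SE 0.41, adjusted p = 1.04e-07) in WT mice and −3.39 (SE 0.40, adjusted p = 1.22e-06) in KO mice. Adamts18, known for a part in the branching of epithelial organs and lying on chr8:113697126-113848738 (minus strand), held 2.11, 5.07 and 11 CPM in WT glands and 0.102, 0.449 and 1.98 CPM in WT tumors. Its KO glands held 0.788, 6.04 and 9.69 CPM and its KO tumors 0.292, 0.902 and 2.02 CPM. The WT groups lay apart, and KO gland week 12 replicate 2 was again the only gland among the tumors. Adamts18 changed by −2.97 (SE 0.47, adjusted p = 3.08e-05) in WT mice and by −2.67 (SE 0.46, adjusted p = 0.000155) in KO mice, the latter −1.75 without gland replicate 1 of week 12.

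The 2 procollagen N-proteinases that were lower were Adamts2 and Adamts3. Adamts2, which trims fibrillar procollagens and lies on chr11:50602084-50807573 (plus strand), measured 4.72, 9.89 and 22.6 CPM in WT glands and 1.5, 2.26 and 6.7 CPM in WT tumors. Its KO glands held 3.2, 11.7 and 27.9 CPM and its KO tumors 1.49, 2.51 and 7.04 CPM. The log2 fold change was −2.30 (SE 0.37, adjusted p = 4.38e-05) in WT mice and −1.83 (SE 0.37, adjusted p = 0.000814) in KO mice. At weeks 6, 8 and 10 the highest WT tumor (6.7 CPM) lay just below the lowest WT gland (6.8 CPM), whereas 1 WT gland of week 12 held 4.72 CPM. Without KO gland replicate 1 of week 12 the KO value of Adamts2 was −1.06, still called. Adamts3, better known for activating VEGF-C, changed by −1.41 (SE 0.20) and −0.79 (SE 0.20). Adamts6 changed by −0.97 (SE 0.28) and −1.12 (SE 0.28), and Adamts9, also a hyalectan-cleaving enzyme, by −0.60 (SE 0.17) and −0.63 (SE 0.17). The calls of Adamts9 were lost without any 1 of 6 libraries of WT mice (−0.57 to −0.40) and any 1 of 3 of KO mice (−0.57 to −0.37), and the WT value was −0.30 (adjusted p = 0.348) without the fibroblast-rich glands. Adamts16 and Adamts17 were called in WT mice, at −1.53 (SE 0.41) and −1.42 (SE 0.29), and measured −0.32 and −0.75 in KO mice. Both WT calls were lost without the 2 fibroblast-rich glands, at −1.22 (adjusted p = 0.111) for Adamts16 and −0.74 (adjusted p = 0.115) for Adamts17.

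**Figure D3:**
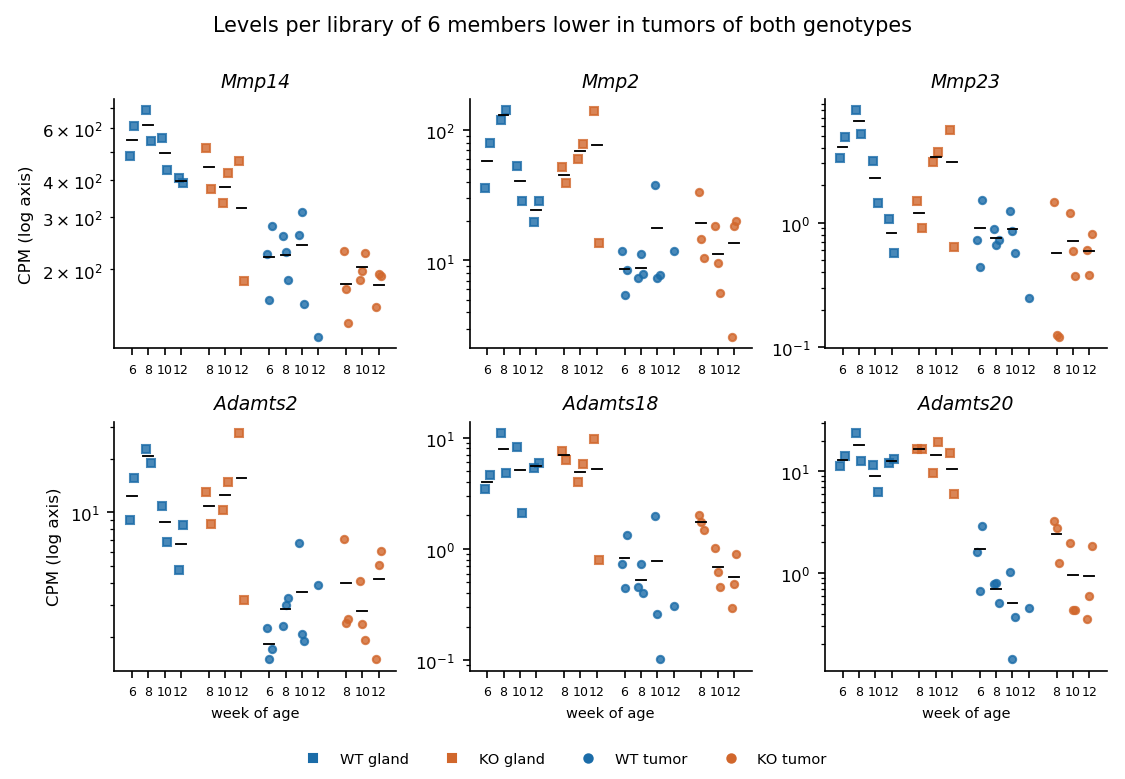
CPM (log axis) of Mmp14, Mmp2, Mmp23, Adamts2, Adamts18 and Adamts20 in each library, by genotype, tissue and week, with bars at group means. Most glands sit above most tumors for these 6 genes, and KO gland week 12 replicate 2 sits low for Mmp14 (183 CPM), Mmp2 (13.7 CPM), Adamts2 (3.2 CPM) and Adamts18 (0.788 CPM).

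WT tumors and WT glands of weeks 6, 8 and 10 did not overlap for 5 members, all lower in tumors (Adamts18, Adamts2, Adamts20, Adamts3 and Mmp14), where 3.53% of all genes were lower without overlap. None was higher without overlap there, where 2.45% of all genes were. In KO mice only Adamts20 was lower without overlap (1.44% of all genes) and only Mmp7 was higher (1.99%). The basal or myoepithelial markers moved in the same direction as these members. All 10 were called lower in the tumors of both genotypes, from −0.71 for Krt14 to −3.81 for Myh11 in WT mice and from −0.89 for Krt17 to −3.35 for Myh11 in KO mice. The WT call of Krt14 was lost without gland replicate 1 of week 10 or of week 8 (−0.54 to −0.45). In KO mice gland replicate 1 of week 12 carried the call of Trp63 (−0.53 without it), and that of Krt17 was lost without this gland or replicate 2 of week 10 (−0.69). The KO gland that sat low for Mmp14, Mmp2, Adamts2, Adamts18 and Adamts20 held the lowest basal sum of the KO glands, 5561 CPM, and the highest ribosomal RNA share, 18.8%. Fibroblast markers were called lower for 7 of 10 genes in WT mice and for 2 of 10 in KO mice. Their median log2 fold change in WT mice was −2.53 at week 6, −3.39 at week 8 and 0.24 at week 10, and without the 2 fibroblast-rich glands 2 were called lower and 2 higher in the average. All 10 basal markers were called lower without those glands as well. The part of the basal and fibroblast markers in these results was not tested.

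Fewer members were higher in tumors. Mmp7, the matrilysin gene of epithelial cells (chr9:7692090-7699585, plus strand), was at 0 reads in the WT glands of weeks 6 and 8 and in the KO glands of week 12. The WT tumors held 4 to 75 reads and the KO tumors 5 to 54. WT gland replicate 1 of week 10 held 10 reads (0.077 CPM), more per library read than WT tumor replicate 2 of week 6 with 4 reads (0.0683 CPM), KO gland replicate 1 of week 8 held 5 reads, and the remaining glands held 0 or 1. Against a floor of 3 reads per library, the mean CPM of WT tumors was at least 5.16-fold higher at week 6 and at least 7.5-fold higher at week 8. The mean of KO tumors was at least 5.34-fold higher at week 12. Mmp7 was called in both averaged contrasts, with adjusted p = 1.39e-05 and 5.19e-05. Its level stayed low, with a median of 0.412 RPKM in WT tumors and 0.702 RPKM in KO tumors. The antisense gene AV064505 overlaps 11.5% of its exon bases on the other strand. Whether reads were counted by strand is not given in the sources used here, so reads of the 2 genes may have been shared.

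Mmp25, a GPI-anchored enzyme known from leukocytes, held 0.133, 0.465 and 1.2 CPM in the lowest, median and highest WT gland and 0.298, 1.1 and 3.02 CPM in WT tumors. KO glands held 0.0481, 0.246 and 1.95 CPM and KO tumors 0.202, 0.794 and 2.8 CPM. In 3 of the 6 KO glands Mmp25 held at most 3 reads, taken here as not detected. The groups overlapped in both genotypes. Its log2 fold changes were 1.5 (SE 0.49, adjusted p = 0.0332) and 1.56 (SE 0.56, adjusted p = 0.0686), and the call was lost without any 1 of 3 WT libraries (1.31 to 1.37) or 6 KO libraries (1.07 to 1.70). Neutrophil markers summed to 89.6 to 766 CPM in WT tumors and 10.6 to 68.4 CPM in WT glands, and to 54.9 to 1047 CPM in KO tumors and 18.9 to 63.5 CPM in KO glands. Of the 10 neutrophil markers, 2 were called higher and 1 lower in WT mice, and 3 were called higher in KO mice. S100a8 and Ltf were called higher in both genotypes and Camp in KO mice, whereas Csf3r was called lower in WT mice (not without the fibroblast-rich glands), and Elane and Ngp were at 0 in all KO glands. The call of Camp was lost without any 1 of 3 KO libraries (3.65 to 4.06) and that of Csf3r without any 1 of 9 WT libraries (−2.32 to −1.05). The part of these markers in the Mmp25 values was not tested.

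Hyalectan-cleaving ADAMTS genes went both ways. Adamts8 measured 5.05, 9.29 and 17.5 CPM in WT glands and 11.9, 21.5 and 29.0 CPM in WT tumors. KO glands held 6.1, 11.7 and 13.8 CPM and KO tumors 12.4, 17.1 and 33.2 CPM, with an overlap at the edges in both genotypes. It rose by 1.11 on the log2 scale in WT mice (SE 0.23, adjusted p = 0.000908) and by 0.75 in KO mice (SE 0.23, adjusted p = 0.0263), and the KO call was lost without gland replicate 1 of week 10 (0.62, adjusted p = 0.111). Adamts15, its neighbour on chromosome 9, rose by 0.96 in WT mice (SE 0.21, adjusted p = 0.00129) and measured 0.48 in KO mice. Adamts5, the main mouse aggrecanase, rose by 0.78 in WT mice (SE 0.29, adjusted p = 0.0681), a call lost without any 1 of 8 libraries (0.53 to 0.82) and without both fibroblast-rich glands (0.57, adjusted p = 0.355), and measured −0.10 in KO mice. Adamts14, the remaining procollagen N-proteinase, rose by 0.84 in WT mice (SE 0.31, adjusted p = 0.0628), a call lost without any 1 of 7 libraries (0.65 to 0.88). In KO mice Adamts4 rose by 0.77 (SE 0.23, adjusted p = 0.0211), with a fold under 1.5 without KO tumor replicate 1 of week 8 (0.56). Adamts1 changed by −0.77 in KO mice (SE 0.25, adjusted p = 0.0408), a call lost without KO gland replicate 2 of week 12 (−0.54, adjusted p = 0.249), and measured −0.47 in WT mice.

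On chromosome 9 lie 9 members side by side, from Mmp13 to Mmp7 over 427 kb (chr9:7272514-7699585). They are Mmp13, Mmp12, Mmp1b, Mmp3, Mmp10, Mmp8, Mmp27, Mmp20 and Mmp7. In WT mice 6 of them were called lower in tumors and 1 higher, against 9.53% and 6.21% of all genes, and in KO mice 1 was lower and 1 higher, against 5.44% and 5.16%. Of the 6 lower calls in WT mice, those of Mmp3, Mmp8 and Mmp27 were lost without the 2 fibroblast-rich glands. The motif of the AP-1 factors, TGAGTCA or its reverse complement TGACTCA, was searched in the 250 bases upstream of RefSeq gene starts on both strands. It was present in 6 of 34 promoters of 31 members (17.6%) and in 4.46% of all 32851 promoters, and all 6 lie in this cluster. The remaining members had no promoter in the set searched, among them Mmp2, Mmp9, Mmp16, Mmp17, Mmp19, Adamts5 and Adamts8. The TATA motif TATAAA was present in 23.5% of the members' promoters and in 7.59% of all. The 6 matches belong to 6 of the 9 cluster genes and are shown because none of the members' promoters searched outside the cluster held one. Mmp8, Mmp27 and Mmp20 held none, nor did a second RefSeq start of Mmp12 and of Mmp7. Each run holds 30 bases of GRCm38.p6 from RefSeq, written 5′ to 3′ on the gene's own strand, with the motif in capitals.
Mmp13: accccaaagtggTGACTCAtcactatcatg
Mmp12: tgacatcaacagTGAGTCAgatagaggatt
Mmp1b: tgttacaaagccTGAGTCAtatagcctctg
Mmp3: tggaagcaattaTGAGTCAgttttcgggtg
Mmp10: atagcacccatgTGAGTCAtgcttagtgac
Mmp7: aaagtgtgcaaaTGAGTCAcctatttccac

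In this order the runs lie at chr9:7272467-7272496, chr9:7347318-7347347, chr9:7388102-7388131, chr9:7445764-7445793, chr9:7502267-7502296 and chr9:7692015-7692044, on the plus strand except for that of Mmp1b. The first base of the motif lies at −35, −44, −93, −46, −63 and −63 from the RefSeq start. A match describes letters only and does not show that a factor bound there. Genes with this motif went both ways in WT tumors, with Mmp7 higher and Mmp13, Mmp12, Mmp10 and Mmp3 called lower.

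Mmp10 measured 16.3, 29.5 and 39.4 CPM in the lowest, median and highest WT gland and 2.23, 4.31 and 32.8 CPM in WT tumors. KO glands held 6.89, 10.9 and 16.9 CPM and KO tumors 2.25, 4.07 and 12.1 CPM. The highest WT tumor was replicate 3 of week 6, the other 2 tumors of that week held about 12 and 11.3 CPM, and the later WT tumors at most 5.65 CPM. Mmp10 changed by −2.24 in WT mice (SE 0.28, adjusted p = 1.06e-06) and by −1.01 in KO mice (SE 0.28, adjusted p = 0.013).

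Mmp13, the main collagenase of the mouse, held 3.1, 8.97 and 12.8 CPM in WT glands and 0.969, 3.02 and 5.9 CPM in WT tumors. In KO mice the glands held 2.22, 4.72 and 5.57 CPM and the tumors 2.7, 3.9 and 6.63 CPM. It fell by 1.63 on the log2 scale in WT mice (SE 0.26, adjusted p = 4.35e-05) and measured −0.06 in KO mice. KO glands stood near the level of the tumors of both genotypes. Mmp12, the macrophage elastase gene, held 22.8, 28.6 and 47.0 CPM in WT glands and 2.34, 8.47 and 45.3 CPM in WT tumors, against 8.62, 15.2 and 26.5 CPM in KO glands and 8.47, 15 and 20.5 CPM in KO tumors. It fell by 1.79 in WT mice (SE 0.30, adjusted p = 6.06e-05) and measured −0.07 in KO mice. Macrophage markers summed to 151 to 292 CPM in WT tumors, 62.9 to 173 CPM in WT glands, 152 to 418 CPM in KO tumors and 68.2 to 154 CPM in KO glands. Of them, Cd14 was called higher in both genotypes, C1qb higher in KO mice, and Adgre1, Fcgr1, Itgam and Lyz2 lower in WT mice. The KO call of C1qb was lost without any 1 of 12 libraries (1.34 to 4.1). All of the lower WT calls were lost without the 2 fibroblast-rich glands, while C1qb and Csf1r were then called higher. The median log2 fold change of the macrophage markers in WT mice went from −0.51 to 0.72 without those glands. The part of these markers in the Mmp12 values was not tested. Mmp12 and Mmp1b share 157 exon bases on opposite strands.

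Mmp3 and Mmp8 rested on single libraries. Mmp3 measured 1.92 and 53.3 CPM in the WT glands of week 6, 0.288 and 122 at week 8, 1.52 and 27.9 at week 10 and 2.09 and 1.6 at week 12. The 2 highest glands are those with fibroblast sums of 257 and 797 CPM. WT tumors held 2.03 to 18.7 CPM, above the lowest glands and below the highest. The log2 fold change was −2.21 (SE 0.76, adjusted p = 0.0417), turned to 0.36 (adjusted p = 0.923) without WT gland replicate 2 of week 8, and stood at 1.64 (adjusted p = 0.225) without both fibroblast-rich glands. The call was also lost without WT gland replicate 2 of week 10 or of week 6, with log2 values from −1.12. In KO mice Mmp3 measured 1.21 (SE 0.82, adjusted p = 0.443). Mmp8, the neutrophil collagenase gene, held 18 to 169 reads in the WT glands of weeks 6 to 10 and 0 to 40 in the WT tumors of those weeks and changed by −1.75 (SE 0.61, adjusted p = 0.0447), a call lost without any 1 of 3 WT glands (−1.5 to −1.07) and without both fibroblast-rich glands (−1.24, adjusted p = 0.299). Mmp27, with at most 3 reads in 26 of 33 libraries, was called lower in WT mice (−2.98, SE 0.80, adjusted p = 0.0083), and its call too was lost without either fibroblast-rich gland or both (−1.05, adjusted p = 0.549 without both).

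Mmp9 lies outside the cluster, on chr2:164940780-164955850 (plus strand). It measured 448 and 445 CPM in the WT glands of week 6, 140.5 and 286 at week 8, 139 and 292 at week 10 and 69.2 and 43.7 at week 12. WT tumors held 6.47 to 167 CPM at weeks 6 to 10. KO glands held 29.0, 65.2 and 114 CPM and KO tumors 14.7, 31.6 and 101.5 CPM. WT glands of weeks 6 to 10 were above most other libraries, while KO glands overlapped both kinds of tumor. Mmp9 fell by 2.06 on the log2 scale in WT mice (SE 0.46, adjusted p = 0.00165) and measured −0.48 in KO mice (SE 0.46, adjusted p = 0.663).

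**Figure D4:**
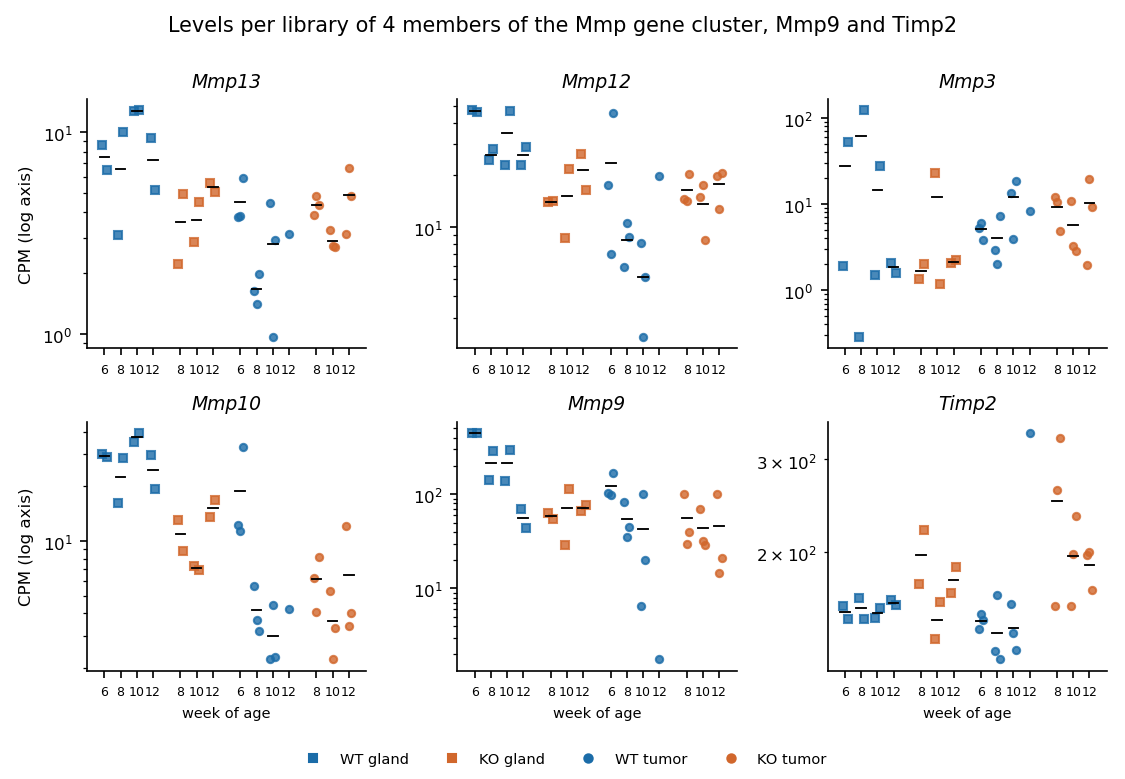
CPM (log axis) of Mmp13, Mmp12, Mmp3, Mmp10, Mmp9 and Timp2 in each library, by genotype, tissue and week, with bars at group means. WT glands reach 448 CPM for Mmp9 and 39.4 CPM for Mmp10, KO glands 114 and 16.9 CPM, and 2 WT glands stand apart for Mmp3 at 53.3 and 122 CPM.

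None of the TIMPs was called by edgeR in the averaged or weekly contrasts of tumor and gland, while DESeq2 called Timp1 at KO week 12. Timp1 (chrX:20870166-20874735, plus strand) measured 35.8, 99.6 and 130.6 CPM in WT glands and 17.5, 99.9 and 113 CPM in WT tumors, and 35.4, 143.5 and 222 CPM in KO glands and 25.2, 102.9 and 121 CPM in KO tumors. The WT groups overlapped, whereas the 4 KO glands of weeks 10 and 12, at 134 to 222 CPM, lay above all KO tumors and the 2 of week 8, at 43.9 and 35.4 CPM, lay among them. The log2 fold changes were −0.13 (SE 0.23, adjusted p = 0.834) and −0.40 (SE 0.23, adjusted p = 0.322). Timp2 (chr11:118301069-118355740, minus strand) held between 149 and 164 CPM in all 8 WT glands, a narrow range, and measured −0.10 (SE 0.11, adjusted p = 0.634) in WT mice and 0.28 (SE 0.12, adjusted p = 0.124) in KO mice. Timp3 (chr10:86300372-86349506, plus strand) held 341 to 1148 CPM in WT glands and 490.2 to 1207 CPM in WT tumors, with a log2 fold change of 0.04 (SE 0.19). In KO mice it measured −0.51 (SE 0.19, adjusted p = 0.0832), a fold under 1.5. Syn3 overlaps 21.3% of the exon bases of Timp3 on the opposite strand, Timp1 lies within Syn1 with no shared exon base, and Timp4 lies within Syn2 and shares 90 exon bases with it.

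Summed per kilobase, the 4 TIMP genes stood above the 22 MMP genes in every tumor but not in every gland. The MMP sum had a median of 229.6 RPKM in WT glands (116 to 329), 130.5 in KO glands (81.8 to 168), 85.4 in WT tumors (47.5 to 140.3) and 73.3 in KO tumors (60.1 to 102). The TIMP sum had medians of 219.6, 302, 226 and 220.5 RPKM in the same order. The TIMP sum exceeded the MMP sum in 10 of 10 WT tumors, 9 of 9 KO tumors and 6 of 6 KO glands, but in 3 of 8 WT glands, namely both of week 12 (ratios 1.68 and 1.54) and replicate 1 of week 10 (1.53). The median ratio was 0.947 in WT glands, 2.08 in KO glands, 2.62 in WT tumors and 2.83 in KO tumors. Mmp14 and Mmp9 made up most of the MMP sum in WT glands, with means of 86.3 and 65.8 RPKM. RNA sums carry no information on active enzyme, and no test was run on them.

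**Figure D5:**
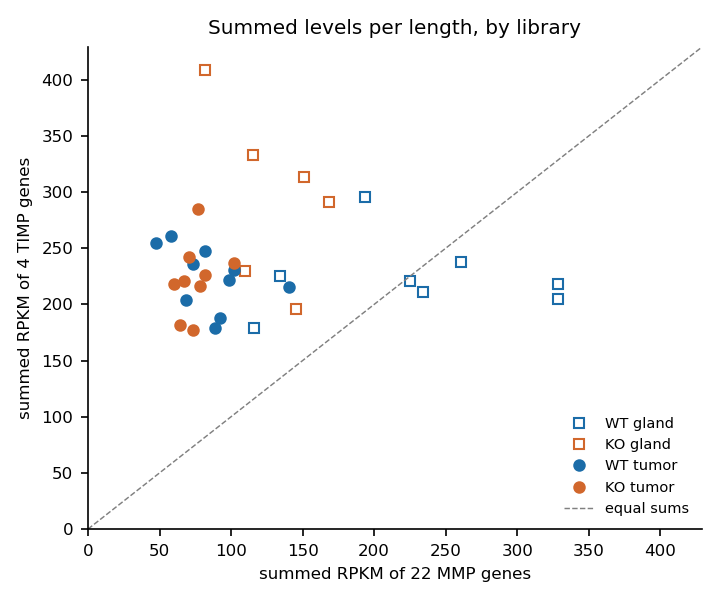
Summed RPKM of the 4 TIMP genes against the 22 MMP genes, 1 point per library, with a dashed line where the sums are equal. All tumors and KO glands lie on the TIMP side of the line, while 5 of 8 WT glands lie on the MMP side.

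Genotypes were compared within each tissue. In tumors at matched stage, which sets WT weeks 6, 8 and 10 beside KO weeks 8, 10 and 12 and so differs in age by 2 weeks, 0 of 45 members were called by edgeR, where 1.11% of all genes were. DESeq2 called 0 as well, and 4 members had an unadjusted p under 0.05. Leaving out any 1 of 4 tumors gave calls. Without KO replicate 1 of week 8 there were 3, namely Timp2 (−0.63), Timp1 (0.59) and Mmp23 (1.15). Timp2 alone was called without WT replicate 2 of week 8 or KO replicate 1 of week 10, and Mmp12 alone without WT replicate 3 of week 6 (−0.96). Timp2 came nearest. It measured 143, 152.5 and 149 CPM in the WT tumors of week 6, 129.8, 166 and 125 at week 8 and 159, 140.2 and 131 at week 10. The KO tumors held 158, 263 and 329.7 CPM at week 8, 158, 199 and 234 at week 10 and 198, 199.9 and 169 at week 12. KO tumors lay higher with an overlap at the edge. The single WT tumor of week 12, which entered no test, held 336.9 CPM, more than any KO tumor. The log2 difference of WT over KO was −0.55 (SE 0.10, adjusted p = 0.00853), which is a fold under 1.5, and at the same age, weeks 8 and 10, it was −0.65 (adjusted p = 0.024) and passed. With the ribosomal RNA share as a covariate it was −0.43, still with adjusted p = 0.0223.

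In glands 1 member, Mmp10, was called between genotypes, where 0.906% of all genes were. Its WT glands held 16.3 and 28.5 CPM at week 8, 35.3 and 39.4 at week 10 and 29.9 and 19.3 at week 12. KO glands held 13.1 and 8.76, 7.26 and 6.89, and 13.6 and 16.9 CPM at the same weeks. They overlapped only between 16.3 and 16.9 CPM. The difference was 1.37 (SE 0.31, adjusted p = 0.0392), against a median of 0.14 over all genes. The call was lost without any 1 of 5 glands (1.22 to 1.36, adjusted p between 0.106 and 0.183), namely WT replicate 2 of week 8, replicate 2 of week 10 and replicate 1 of week 12, and KO replicate 2 of week 8 and of week 10. It was lost as well with the ribosomal RNA share as a covariate (1.48, adjusted p = 0.164), without the fibroblast-rich glands (1.22, adjusted p = 0.166) and without libraries above 10% ribosomal RNA (1.34, adjusted p = 0.348). KO glands held up to 18.8% ribosomal RNA and WT glands at most 0.261%, and the part of RNA quality was not tested further. Mmp13 followed at 1.04 (SE 0.30, adjusted p = 0.109), and DESeq2 called Mmp15, Mmp10 and Mmp13. At an unadjusted p under 0.05 there were 10 members.

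Whether the change from gland to tumor differed between genotypes was tested as the difference of both contrasts. By edgeR 0 members were called, where 0.14% of all genes were, with 9 members at an unadjusted p under 0.05. DESeq2 called 4, namely Mmp3, Mmp10, Mmp12 and Mmp13, all in the chromosome 9 cluster. The edgeR values were −1.73 for Mmp12 (SE 0.43, adjusted p = 0.12), −1.57 for Mmp13 (SE 0.38, adjusted p = 0.111), −1.23 for Mmp10 (SE 0.40, adjusted p = 0.249), −3.43 for Mmp3 (SE 1.1, adjusted p = 0.261) and −1.59 for Mmp9 (SE 0.66, adjusted p = 0.385). The value of Mmp3 was −0.85 without WT gland replicate 2 of week 8 and 0.43 without both fibroblast-rich glands (adjusted p = 1.0 in both), where those of the other 4 genes lay between −1.69 and −1.08. None of these genes, Mmp9 included, was called in either of these fits. The number of members called in this difference by edgeR also moved with the filter on low counts, to 2 with filterByExpr (Mmp12 and Mmp13) and to 5 without a filter (Mmp3, Mmp9, Mmp10, Mmp12 and Mmp13). Leaving out any 1 of 7 libraries gave 1 to 3 calls, with 3 without WT gland replicate 1 of week 8, WT gland replicate 1 of week 10 or KO gland replicate 1 of week 12. Mmp13 was among them for 6 of these libraries and Mmp12 for 5.

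Time within a group gave few calls. From week 6 to week 10 of WT tumors, 1 member was called, Mmp10, where 0.011% of all genes were. It measured about 12, 11.3 and 32.8 CPM at week 6, 5.65, 3.65 and 3.21 at week 8 and 2.23, 4.42 and 2.3 at week 10. Week 6 lay above both later weeks without overlap. It fell by 2.66 on the log2 scale (SE 0.46, adjusted p = 0.0842), and the call was lost without WT tumor replicate 1 or 2 of week 10 or replicate 3 of week 6 (−3.05 to −1.99, adjusted p between 0.182 and 0.577). DESeq2 called 3 members there, Mmp24, Mmp10 and Mmp12, and 10 had an unadjusted p under 0.05. From week 8 to week 12 of KO tumors edgeR called 0 members and 0% of all genes, with 7 members at an unadjusted p under 0.05 and 2 called by DESeq2, Adamts1 and Adamts5. From week 6 to week 12 of WT glands edgeR called 0 members (0.35% of all genes), with 9 at an unadjusted p under 0.05 and 2 called by DESeq2, Timp1 and Mmp9. Mmp9 measured −2.98 there (SE 0.94, adjusted p = 0.272) and Timp1 −1.47 (SE 0.45, adjusted p = 0.24).

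Genes that act around these proteases were read from lists of activators, inhibitors, related proteases and substrates, against the same background of 15.7% and 10.6%. Of 31 calls in WT mice and 23 in KO mice over these lists, 12 and 9 were lost without 1 library or another, among them those of Tfpi2 and Pcsk5 in WT mice and of Adam22, Pcolce and Tll1 in KO mice. Of 9 plasminogen activation genes, 1 was higher and 3 lower in WT tumors, and 1 was higher and 2 lower in KO tumors. Serpine2, which inhibits plasminogen activators, rose by 1.69 and 0.89, while Plat, tissue plasminogen activator, changed by −1.69 and −1.25 and Plaur, the urokinase receptor, by −1.0 and −0.98. Of 11 activators and non-TIMP inhibitors, 2 were higher and 1 lower in WT mice and 2 were higher and 2 lower in KO mice. Spock2, a testican proteoglycan, changed by −3.71 and −2.77, Tfpi2, a serine protease inhibitor of the matrix, by 1.38 and 2.77, and Pcsk5, a proprotein convertase, by 0.90 and 1.24.

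Of 11 ADAM proteases, 2 were higher and 7 lower in WT mice and 1 was higher and 3 lower in KO mice. Adam19 changed by −3.33 and −2.92 and Adam22, which lacks protease activity, by −2.48 and −2.11. Adam28 rose by 2.23 in WT mice. Of 6 ADAMTS-like genes, which lack the protease domain, 2 were higher and 1 lower in WT mice and 2 were higher and 2 lower in KO mice, with Adamtsl5 at −2.51 and −1.93 and Adamtsl4 at 0.88 and 0.66. Of 15 cathepsins and cystatins, 3 were higher and 3 lower in WT mice and 4 were higher and 0 lower in KO mice. Ctsh rose by 1.04 and 1.00, and Ctss and Ctsk changed by −2.24 and −1.53 in WT mice. Without the fibroblast-rich glands the 3 lower cathepsin calls were lost (Ctss −1.02, Ctsk 1.14), and 3 ADAM proteases instead of 7 were lower in WT mice.

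Of 7 procollagen processing genes, none was higher and 2 were lower in both genotypes. They were Tll1, a tolloid protease (−2.27 and −1.36), and Pcolce, which enhances procollagen C-proteinase (−1.82 and −1.10). Of 8 proteoglycan substrates, none was higher, 4 were lower in WT mice and 2 in KO mice. Fmod, fibromodulin, changed by −2.53 and −1.91 and Vcan, versican, by −0.68 and −0.68, while Dcn and Bgn, decorin and biglycan, changed by −2.89 and −2.64 in WT mice. Decorin is also one of the fibroblast markers. The median of the proteoglycan list in WT mice was −1.38 at week 6, −2.09 at week 8 and 0.18 at week 10. Without the fibroblast-rich glands only Bgn was still called (−1.43), Dcn measured 0.33 and Fmod −1.95 (adjusted p = 0.972 and 0.13), and the call of Pcolce was lost (−0.82, adjusted p = 0.143). In KO mice the calls of Fmod and Vcan were lost without any 1 of 8 and any 1 of 10 libraries. The WT call of Vcan was lost without any 1 of 10 libraries as well (−0.7 to −0.3). No gene of these lists was called between genotypes by edgeR in tumors or in glands, or in the difference of tumor change.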

How the data were processed

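Total RNA of sorted GFP+ cells was rRNA-depleted and sequenced with a strand-marking kit. The authors aligned reads with HISAT (GRCm38, Gencode M16), removed duplicates with Picard 1.128, counted reads per gene with HTSeq and used R 3.6.2 with DESeq2. The deposited raw table holds counts per gene, and the deposited normalized table holds a signal, namely counts divided by size factors. From the latter, 100% of values came back as whole reads (tolerance 1e-06), and a count test on them called the same number of members, 26 and 17, in both averaged contrasts. The 111 rows that name no gene took 0.0778% of reads and were left out.

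Genes with at least 10 reads over 33 libraries entered edgeR 4.0.16 (R 4.3.3, limma 3.58.1, TMM, quasi-likelihood test) with 1 coefficient per group of genotype, tissue and week. The WT tumor of week 12 had no replicate and entered the fit but no test. Calls needed a fold over 1.5 with p under 0.1 after Benjamini-Hochberg adjustment over all 36527 genes. Each standard error (SE) was taken from the F statistic, as the log2 value over its root. The 14 contrasts were tested two-sided. Exon lengths, positions and overlaps came from Gencode M21 on GRCm38, which held all 45 members but is another release than the M16 named by the authors, so lengths behind RPKM values may differ from those counted over, and promoters from RefSeq (GRCm38.p6). The fit was also run on simulated counts, and the outcome is not given here. Alternatives were DESeq2 1.42.0, other size factors and filters, the rRNA share as covariate, a replicate block, only the libraries compared, matched age, and each library left out.

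Named genes were the members called in both averaged contrasts or between genotypes, the TIMPs, the 5 most abundant, up to 4 examples of the rest of each role, and 3 called genes per pathway list. Members and lists were chosen with earlier results of these data known. No 2 libraries of a group were alike within sampling noise (25 pairs). Mice of a group are separate animals. Depth sets counting error only, and values of at most 3 reads were taken as not detected.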

Additional observations from a re-analysis of the deposited data

Results flagged for a closer look

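The WT tumor of week 12 has no replicate and enters no comparison. In it 6 members stood above all 8 WT glands, where 17.6% of all genes did, and 23 stood below them, where 11.7% did. Among the lower ones, Mmp14 measured 118.6 CPM (391.1 in the lowest gland), Mmp9 1.77 CPM (43.7), Timp1 17.5 CPM (35.8) and Adamts20 0.452 CPM (6.32). The 6 higher ones follow. Timp2 measured 336.9 CPM there, against 164 CPM in the highest WT gland and 125 to 166 CPM in the other WT tumors. Timp3 measured 1207.3 CPM, against 1147.5 in the highest gland and 490.2 to 813 in the other WT tumors. Adamts10 measured 27 CPM (25.8 in the highest gland), Adamts15 40.1 CPM (31.5), Adamts14 1.12 CPM (0.829) and Mmp7 0.177 CPM (0.077), the last from 18 reads. Adamts15, Adamts14 and Mmp7 lay within the range of the other WT tumors, and Adamts10 just above it (14.1 to 26.6 CPM). With 1 library these values have no replicate check. Groups held at most 3 libraries, and single libraries were not tested as extreme values.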

How the results depend on the processing

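Of the members called in the averaged contrasts, 16 of 26 in WT mice and 9 of 17 in KO mice passed in every one of 25 settings. Counts of called members that moved by over 1.5 times follow, and the cause was not tested. With DESeq2 the counts were 13 at WT week 6, 4 at KO week 8, 15 at KO week 12, 3 for glands between genotypes, 4 for the difference of tumor change, 3 for WT tumors over time, 2 for KO tumors over time and 2 for WT glands over time. Without a filter on low counts they were 15 at WT week 6, 8 at KO week 8, 16 at KO week 10, 15 at KO week 12, 1 for tumors and 4 for glands between genotypes, 5 for the difference, and 5, 2 and 4 over time in the same order. With filterByExpr they were 12 at WT week 6, 2 for glands between genotypes, 2 for the difference and 0 for WT tumors over time. With only the libraries compared they were 17 and 4 at WT weeks 6 and 10, 6, 20 and 0 at KO weeks 8, 10 and 12, 0 for WT tumors and 2 for WT glands over time. At matched age 1 member was called between tumors, and with the rRNA covariate 0 between glands. The numbers of replicates did not pair mice (12 pairs, correlations from −0.562 to 0.561, 3 over 0.1). With a replicate block 22 and 15 members were called in the averages, 4 at KO week 12, and every other count stayed within 1.5 times. Chosen after seeing the data, leaving out the 2 fibroblast-rich glands gave 0 calls at WT week 6, 9 at WT week 8, 0 for glands between genotypes and 21 in the WT average, and turned Mmp3 to 1.64. Leaving out libraries over 10% rRNA gave 1 call at KO week 8, 0 for glands between genotypes and 15 in the KO average.

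Leaving out 1 library at a time gave 20 to 28 calls in the WT average and 13 to 19 in the KO average, 0 to 8, 9 to 17 and 7 to 12 at WT weeks 6, 8 and 10, and 0 to 4, 2 to 8 and 3 to 9 at KO weeks 8, 10 and 12. Between genotypes it gave 0 to 3 in tumors, 0 to 4 in glands and 0 to 3 for the difference, and over time 0 to 3, 0 to 3 and 0 to 0. The lowest counts of the averages came without WT gland week 6 replicate 2 and without KO gland week 12 replicate 1, and the libraries behind the lowest weekly counts are named with those counts. Mmp3 in WT mice ranged from −2.54 to 0.36, turning without WT gland week 8 replicate 2. With 2 glands a week, each weekly contrast rests on few animals, and the call of Mmp27 rests on few reads.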

Other observations

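Some marker lists were not set beside a result above. Of the luminal markers, Elf5 and Csn2 were called higher in tumors of both genotypes (3.01 and 5.23 in WT mice, 2.21 and 4.12 in KO mice), and Krt19, Esr1 and Areg were called lower in both (−2.18, −2.02 and −2.04 in WT mice). The KO calls of Esr1 (−0.84 to −0.54) and Areg (−1.22 to −0.64) were each lost without any 1 of 10 libraries. Endothelial markers were called lower for 6 of 10 genes in WT mice and 1 in KO mice, with median log2 fold changes of −1.45 and −0.74, and summed to at most 62.9 CPM. The KO call, Egfl7, was lost without any 1 of 9 libraries (−0.59 to −0.38). Without the 2 fibroblast-rich glands 1 endothelial call was left in WT mice (median −0.31), and the calls of Cd79a, Lep and Fabp4 there were lost. Lymphocyte markers summed to 14.5 CPM in KO gland replicate 2 of week 10 and to at most 1.23 CPM in the other libraries, with Cd79a called lower in both genotypes. The call of Cd79a was lost without any 1 of 10 WT libraries (−1.52 to −0.29). In KO mice it was lost without any 1 of 3 glands (−1.97 to −1.17), replicate 2 of week 10 among them. Of the adipocyte markers, Pparg was called higher in both, and Lep and Fabp4 were called lower in WT mice.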
